A study of Mus musculus with 16 samples.

Results

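Nuclear receptors are transcription factors, many of which bind small lipid-like ligands, and the accessibility of their gene promoters was followed here through liver, muscle, brown adipose tissue, white adipose tissue, spleen, heart, lung and kidney. The set holds 34 receptor genes, taken by name from the gene family, of 21951 protein-coding genes in the annotation. A gene was measured by the peaks whose summit lay within 3000 bp of one of its annotated starts. All 34 had such a peak in at least 1 library, as had 19719 of the 21951 genes.

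The study measured open chromatin by ATAC-seq, in which a transposase cuts and tags accessible DNA. Male C57BL/6 mice were either fed freely or fasted for a day, and each of the 8 tissues gave 1 library per feeding state, 16 libraries in all. The animals of a state were pooled, both groups were wild type, and no genetic or drug treatment was applied. Bulk tissue mixes cell types, so a weaker peak from fewer cells carrying the open site cannot be told apart from a less open site in each cell.

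Most nuclear receptors bind DNA as monomers, homodimers or heterodimers with a retinoid X receptor, and a lipid-like ligand such as a steroid, thyroid hormone, retinoic acid, oxysterol or bile acid changes which coregulators they recruit. Orphan receptors have no settled physiological ligand. In liver and kidney the family is best known for the sensors of bile acids and foreign compounds, in muscle and heart for the estrogen-related receptors that drive mitochondrial genes, and across tissues for the NR4A receptors, whose genes respond within minutes to hormones and stress.

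The promoters on which the tissue differences turned are printed here first. Each run is the 200 bases ahead of a RefSeq start on GRCm38.p6, read in the direction of the gene, that of Esrra ending 5 bases before its start, and none reaches into the transcript. Capitals mark matches on either strand to the receptor half-site AGGTCA, to TGACG, the core of a cAMP response element, or to the TATA element TATAAA. The first run lies ahead of the downstream start of Nr1h4, chr10:89506659-89506858 on the minus strand.
Nr1h4: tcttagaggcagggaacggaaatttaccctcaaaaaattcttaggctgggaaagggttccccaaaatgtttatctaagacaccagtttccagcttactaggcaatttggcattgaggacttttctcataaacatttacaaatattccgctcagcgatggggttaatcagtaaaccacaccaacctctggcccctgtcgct
The run of Nr0b2 was taken from chr4:133553176-133553375, plus strand.
Nr0b2: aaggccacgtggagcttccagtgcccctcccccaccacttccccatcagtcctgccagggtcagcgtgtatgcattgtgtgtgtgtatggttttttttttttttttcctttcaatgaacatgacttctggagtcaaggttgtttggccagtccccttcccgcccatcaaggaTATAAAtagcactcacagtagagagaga
The runs of Nr1i2, chr16:38294825-38295024 on the minus strand, and of Nr1i3, chr1:171213770-171213969 on the plus strand, hold no match.
Nr1i2: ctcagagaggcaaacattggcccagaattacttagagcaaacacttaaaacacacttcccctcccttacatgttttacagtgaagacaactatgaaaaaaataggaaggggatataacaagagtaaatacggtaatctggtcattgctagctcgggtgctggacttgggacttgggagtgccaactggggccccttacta
Nr1i3: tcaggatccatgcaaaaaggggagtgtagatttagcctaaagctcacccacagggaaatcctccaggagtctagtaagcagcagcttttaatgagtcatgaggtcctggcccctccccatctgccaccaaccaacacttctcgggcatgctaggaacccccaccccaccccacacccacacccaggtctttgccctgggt
Esrrb is shown for its upstream start, chr12:86360917-86361116, and for the start group that was open in more tissues, chr12:86421444-86421643, both on the plus strand.
Esrrb upstream: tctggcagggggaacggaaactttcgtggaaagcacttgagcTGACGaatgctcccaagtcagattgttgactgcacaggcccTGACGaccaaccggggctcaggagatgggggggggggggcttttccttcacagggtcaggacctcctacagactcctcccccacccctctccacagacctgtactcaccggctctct
Esrrb downstream: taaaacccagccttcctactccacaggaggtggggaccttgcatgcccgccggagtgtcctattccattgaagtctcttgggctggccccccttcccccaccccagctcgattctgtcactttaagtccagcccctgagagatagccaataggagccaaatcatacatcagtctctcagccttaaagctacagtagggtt
For contrast, Nr4a1, chr15:101266646-101266845 on the plus strand, and Esrra, chr19:6921814-6922013 on the minus strand, were open in every library.
Nr4a1: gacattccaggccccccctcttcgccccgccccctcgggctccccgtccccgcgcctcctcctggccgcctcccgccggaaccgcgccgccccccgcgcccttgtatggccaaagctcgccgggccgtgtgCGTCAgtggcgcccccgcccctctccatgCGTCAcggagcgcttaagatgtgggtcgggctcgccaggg
Esrra: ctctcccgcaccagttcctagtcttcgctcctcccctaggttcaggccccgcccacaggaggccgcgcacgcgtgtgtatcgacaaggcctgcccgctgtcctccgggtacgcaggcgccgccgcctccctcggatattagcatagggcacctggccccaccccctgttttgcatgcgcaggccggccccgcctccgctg

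The value followed throughout is a percentile. Each deposited list ranks 298996 to 299529 rows by the -log10 p of the peak caller, and a gene was given the percentile of its strongest promoter peak within the list of its library, where 100 is the strongest row and 0 means that no peak was listed. A percentile compares a promoter with the other peaks of the same library and is no count of molecules. The lists do not carry the read depth, but the number of tags expected from the genome background, which scales with depth, could be solved from fold and p, and it ran from 2.80 tags in the fed liver to 12.8 in fed brown adipose tissue. Fed and fasting libraries were unequal in brown adipose (12.8 against 6.76), white adipose (10.02 against 5.87) and muscle (6.39 against 10.6). The mean percentile of 5 marker genes was highest in the labelled tissue for liver, muscle, brown adipose, spleen, lung and kidney. The white adipose list averaged 89.1 fed and 90.9 fasting in white adipose but 92.7 and 93.8 in brown adipose, and the heart list 74.6 and 58.7 in heart beside 60.7 in the fed spleen, so those lists did not single out their tissue. Of 12 epididymis markers, 8 had a peak in fed white adipose tissue and 3 in fasting white adipose tissue, with list means of 38.7 and 14.3, while both spleen libraries also listed 8 of the 12, with means of 28.2 and 19.4.

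Tissue differences were tested with limma across all 19719 genes, with tissue and feeding state in 1 model. The fed and the fasting library of a tissue stand in for replicates, so a p-value measures the spread between them and not between mice. A tissue effect passed at an adjusted p under 0.05 for 24 of the 34 receptors, beside 64.7% of all genes tested, so the share of receptors that varied with tissue was near the background. A peak was listed in all 16 libraries for 24 of 34 receptors, beside 61.4% of all genes. Of the 544 receptor and library pairs, 494 held a peak, and 485 when only peaks with q under 0.01 were counted. Among all genes, 70.7% (fasting muscle) to 78.5% (fed liver) had a listed peak in a library.

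**Figure D1:**
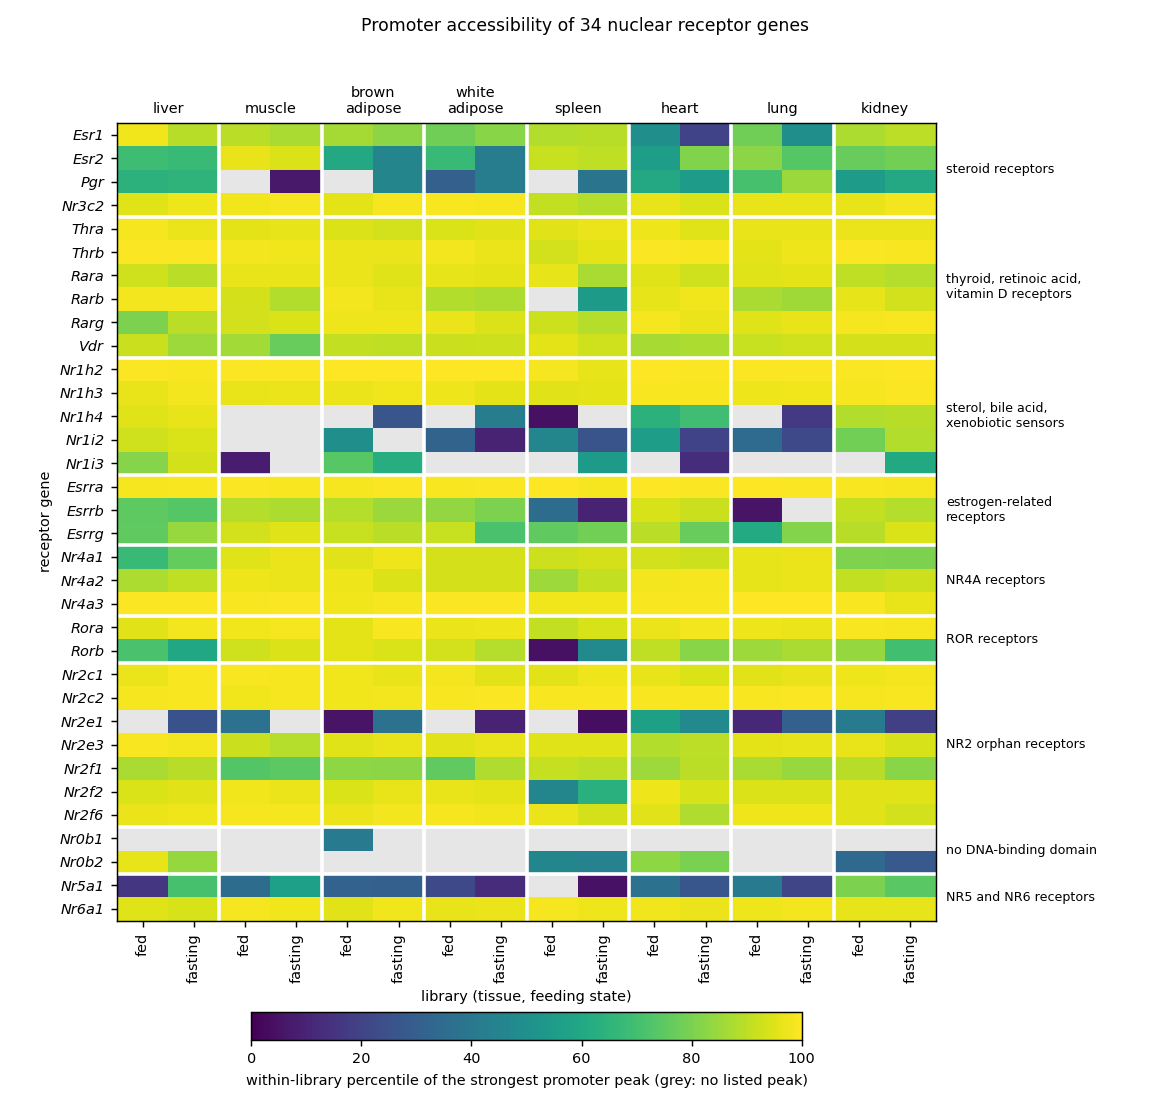
Heat map of the percentile of the strongest promoter peak (colour, 0 to 100; grey, no listed peak) for 34 receptors (rows, by role) in 16 libraries (columns, fed and fasting of 8 tissues). 16 receptors stay at or above 80 in every library, and the share of all genes that do so was not counted. Nr1h4, Nr0b2, Nr1i2 and Nr1i3 are bright mainly in liver, with Nr1h4 and Nr1i2 also in kidney and Nr0b2 in heart.

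By the strongest peak within 3000 bp of a start, the sensors of bile acids and foreign compounds were most open in liver. Nr1h4 encodes FXR, the bile acid receptor. Its promoter ranked at 95.1 in the fed and 96.7 in the fasting liver, and at 88.3 and 89.1 in the fed and fasting kidney. Heart followed at 64.3 and 69.5. In the remaining tissues the peaks were weak or not listed: there was none in either muscle library, in fed brown adipose, fed white adipose, fasting spleen or fed lung. The fasting libraries of brown adipose, white adipose and lung gave 26.9, 41.9 and 17.1, and the fed spleen 4.37. The 4 liver and kidney libraries therefore stood above the other 12 without overlap, though the share of all genes that did so was not counted. Against the mean of the other 7 tissues, Nr1h4 was 67.2 ± 8.48 points higher in liver (difference ± SE, limma, adjusted p = 0.00026) and 59.0 ± 8.48 points higher in kidney (adjusted p = 0.0013), and both calls were kept under all alternative settings. The heart value was 34.1 ± 8.48 points higher (adjusted p = 0.026), but it rested on 20 and 24 tags and turned to -24.8 points when only peaks with q under 1e-06 were counted. Muscle (-42.4 ± 8.48 points), spleen (-39.9 ± 8.48) and lung (-32.6 ± 8.48) were lower (limma, adjusted p = 0.0080, 0.0058 and 0.045). The heart call was also lost without muscle, spleen or lung, the lung call without liver, heart or kidney, and the spleen call on a logit scale.

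The 2 promoters of Nr1h4 differed among these tissues. The downstream start, that of Nr1h4-201 and Nr1h4-202 printed above, had a summit within 1000 bp in the fed liver (84.3), the fasting liver (86.7), the fed kidney (88.3) and the fasting kidney (89.1), and in none of the other 12 libraries. The upstream start of Nr1h4-203 was listed in 9 libraries, among them liver (76.6 and 81.9), kidney (85.99 and 88.8) and heart (64.3 and 64.0). In the kidney the strongest summit of the gene lay 3 bp and -1 bp from the downstream start, with 180 and 170 tags. In the liver it lay 1459 and 1466 bp inside an intron of Nr1h4-203, with 56 and 125 tags. Within 1000 bp of either start kidney ranked above liver in both states. The higher liver value of the whole gene thus came from that intronic site. Both promoters varied with tissue when each promoter of a gene was tested apart (adjusted p = 7.4e-07 downstream and 0.00063 upstream).

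Nr0b2 encodes SHP, a receptor without a DNA-binding domain that bile acid signalling induces in liver. It ranked at 96.1 in the fed and 84.2 in the fasting liver, at 82.9 and 79.8 in heart, at 45.9 and 44.5 in spleen and at 34.1 and 27.8 in kidney. No peak was listed in the 8 libraries of muscle, both adipose tissues and lung. It was 67.7 ± 4.36 points higher in liver (limma, adjusted p = 4.7e-06), a call kept under all alternatives. The heart percentile of Nr0b2, 57.6 ± 4.36 points above the other tissues (adjusted p = 0.00012), came from 43 and 42 tags at 3.86-fold and 3.42-fold enrichment, whereas 53 and 47 tags at 2.81-fold and 2.38-fold gave the kidney its lower percentiles. Fewer tags thus ranked higher in heart than in kidney, and among the strongest 50000 rows of each list the heart difference was -5.86 points.

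Nr1i2 encodes PXR and Nr1i3 encodes CAR, the sensors of drugs and other foreign compounds that induce hepatic detoxification. Nr1i2 ranked at 92.7 and 94.2 in fed and fasting liver and at 78.8 and 88.5 in kidney. In the other tissues it ranked at 55.9 and 20.3 in heart, 45.9 and 26.1 in spleen, 49.8 and no listed peak in brown adipose, 32.0 and 10.2 in white adipose, and 35.2 and 22.1 in lung, each fed first, with no peak in muscle. Liver and kidney again lay above every other library. The liver difference of Nr1i2 was 60.3 ± 10.1 points (limma, adjusted p = 0.0013) and the kidney difference 49.1 ± 10.1 points (adjusted p = 0.0083), while muscle differed by -46.5 ± 10.1 points (adjusted p = 0.011). The summit in the fed liver lay at -858 bp from the start, and that in the fasting liver 10 bp inside it, so the 2 liver libraries did not name the same strongest site.

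Nr1i3 ranked at 81.8 in the fed and 93.6 in the fasting liver, with summits 1 and 8 bp from a start. Brown adipose tissue gave 74.0 and 62.3, from a site at -1409 and -1417 bp from the start of Nr1i3-201. Fasting spleen gave 54.4, fasting kidney 60.7, fasting heart 13.04 and fed muscle 7.61, and the other 8 libraries had no listed peak. The liver difference was 68.3 ± 13.2 points (limma, adjusted p = 0.0029) and was kept under all alternatives of that fit. An exact permutation of the pairing of fed with fasting libraries, run for any tissue effect, did not pass for Nr1i3 (adjusted p = 0.068). The brown adipose difference of 45.9 ± 13.2 points (adjusted p = 0.039) was lost with a window of 1000 bp and was kept under 4 of 11 settings.

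**Figure D2:**
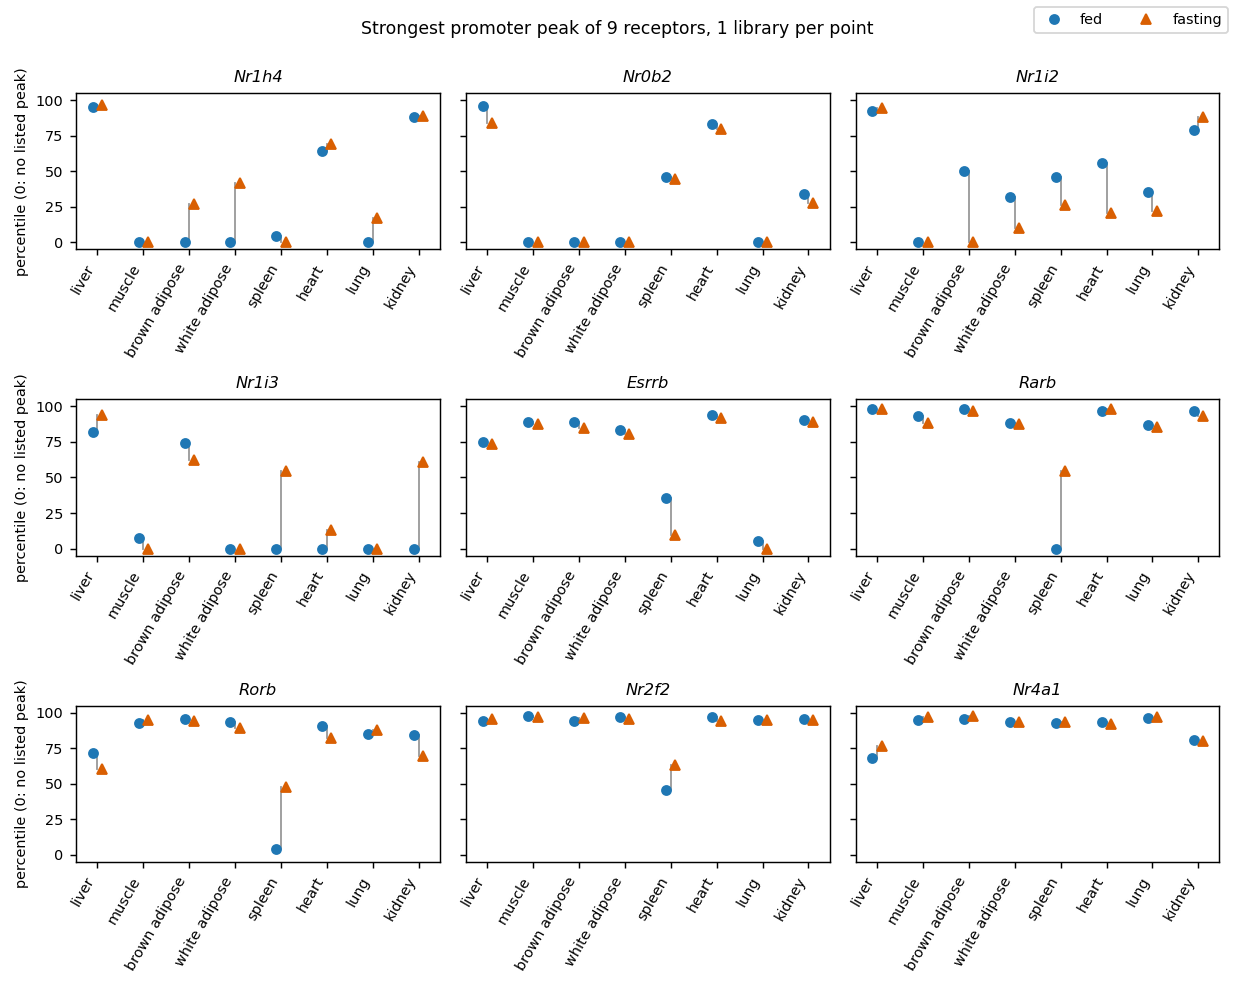
Percentile of the strongest promoter peak (y axis, 0 to 100; 0, no listed peak) in 8 tissues (x axis) for 9 receptors, with 1 point per library (circles, fed; triangles, fasting; lines join the pair). Liver stands highest for Nr1h4, Nr0b2, Nr1i2 and Nr1i3, spleen stands lowest for Rarb, Rorb and Nr2f2, and liver lowest for Nr4a1.

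The liver X receptors, which sense oxysterols, did not share this pattern. Nr1h3 ranged from 95.5 to 99.3 and Nr1h2 from 96.6 to 99.8 over the 16 libraries, but within 1000 bp of its own starts Nr1h2 ran from 23.4 in the fed liver to 96.7 in fasting muscle (limma F-test for tissue, adjusted p = 0.21). Nr1h3 differed by -2.14 ± 0.454 points in spleen and was 1.89 ± 0.454 higher in heart and 1.63 ± 0.454 higher in kidney (limma, adjusted p = 0.0058, 0.023 and 0.030), all 3 lost when rows were ranked by fold enrichment. The kidney difference of Nr1h3 vanished when only starts of protein-coding transcripts were used (-0.046 points). The spleen value of Nr1h2, -1.79 ± 0.374 points (adjusted p = 0.0053), belongs to a summit 2741 to 2764 bp from the nearest Nr1h2 start that also lies within 3000 bp of a start of Pold1, a DNA polymerase gene, and the call was lost with a window of 1000 bp.

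Among the estrogen-related receptors, Esrra was uniformly open and Esrrb was not. Esrra, a regulator of mitochondrial genes, ranged from 98.5 to 99.7, with a tissue range of 0.807 points (limma F-test, adjusted p = 0.38). It shares its promoter region with a start of Catsperz. Esrrb ranked at 94.0 and 91.9 in heart, 90.7 and 88.8 in kidney, 88.9 and 87.5 for muscle, 88.8 and 85.1 for brown adipose, 83.7 and 80.3 in white adipose, and 75.3 and 73.5 in liver. Spleen gave only 35.5 and 9.65, and lung 5.39 in the fed library and no listed peak in the fasting one. Against the other tissues, lung differed by -74.0 ± 5.53 points and spleen by -51.3 ± 5.53 points (limma, adjusted p = 0.00011 for each), and heart lay 29.1 ± 5.53 points higher (adjusted p = 0.0091), all 3 kept under all alternatives. Kidney (25.5 ± 5.53 points), muscle (23.7 ± 5.53) and brown adipose (22.3 ± 5.53) were also higher (adjusted p = 0.011, 0.015 and 0.023), and each of these calls was lost when lung was left out.

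The start groups of Esrrb were open in different sets of tissues, which overlapped in heart, muscle and kidney. The upstream start of Esrrb-204, printed above with its TGACG matches, ranked at 93.8 and 91.9 in heart, 79.8 and 80.5 in muscle and 54.4 and 61.3 in kidney, and had no listed summit in liver or in either adipose tissue. The start group of Esrrb-201, Esrrb-202 and Esrrb-203 was listed in the 12 libraries outside spleen and lung, also in liver and both adipose tissues. Tested apart, both varied with tissue (adjusted p = 8.4e-06 and 4.3e-06). Esrrg ranged from 61.3 to 94.9 and its tissue effect did not pass (adjusted p = 0.21), although each of its 2 promoters passed on its own (adjusted p = 0.0076 and 0.0059).

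The NR4A receptors, early response genes induced by cAMP, ranked high throughout, and liver held the lowest values of Nr4a1. Nr4a1 ranked at 67.8 and 76.3 in fed and fasting liver and at 80.8 and 80.3 in kidney. Muscle gave 95.1 and 97.3, brown adipose 95.4 and 97.4, and the remaining pairs were 93.6 and 93.4 in white adipose, 92.5 and 93.5 in spleen, 93.3 and 92.3 in heart, and 96.3 and 97.1 in lung. Liver and kidney thus lay below the other 12 libraries without overlap, and here too the share of all genes was not counted. Nr4a1 differed by -20.6 ± 1.65 points in liver (limma, adjusted p = 1.8e-05), a call kept under all alternatives. The kidney difference of -10.98 ± 1.65 points (adjusted p = 0.0016) was lost when rows were ranked by fold enrichment, as were the higher values of muscle (6.90), brown adipose (7.13) and lung (7.47 points).

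Nr4a2 followed Nr4a1 in liver, at 87.9 and 90.6, and was also low in spleen, at 85.4 and 91.0. Its other values were 97.4 and 97.1 for muscle, 97.4 and 94.9 for brown adipose, 93.7 and 93.4 in white adipose, 98.1 and 98.7 for heart, 96.5 and 97.2 for lung and 90.8 and 92.6 in kidney. Nr4a2 differed by -5.36 ± 1.19 points in liver and -6.52 ± 1.19 points in spleen (limma, adjusted p = 0.0059 and 0.0026), both kept under all alternatives, and was 5.12 ± 1.19 points higher in heart and 3.80 ± 1.19 higher in muscle (adjusted p = 0.021 and 0.046). Both higher calls were lost when rows were ranked by fold enrichment, and that of muscle also without liver, white adipose or kidney. Nr4a3, taken by its strongest summit, ranked at 99.4 in both liver libraries and at 99.0 and 99.3 for muscle, 98.02 and 98.5 for brown adipose, 99.3 and 99.5 in white adipose, 97.9 and 97.9 in spleen, 99.1 and 99.0 for heart, 99.7 and 99.8 for lung and 99.1 and 96.7 in kidney. Its tissue effect did not pass (adjusted p = 0.080). The strongest Nr4a3 summit lay between -1965 and -1781 bp of the start of Nr4a3-201 in all 16 libraries, and within 1000 bp of a start of the Nr4a3-201 promoter the liver gave 90.98 and 88.2, beside 97.05 and 96.6 in muscle, 95.5 and 98.2 in heart and 89.9 and 94.1 in spleen. That promoter varied with tissue (limma, adjusted p = 0.0099), and liver had its lowest mean.

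Among the steroid receptors, Esr1, Esr2 and Pgr varied widely and Nr3c2 little. Esr1, estrogen receptor alpha, ranked at 97.7 in the fed and 89.3 in the fasting liver, 89.5 and 87.2 for muscle, 86.6 and 82.7 for brown adipose, 78.3 and 82.2 in white adipose, 88.5 and 89.3 in spleen, and 87.7 and 90.02 in kidney. Heart gave 49.99 and 20.3 and lung 78.3 and 49.7. Heart differed from the other tissues by -48.9 ± 6.85 points (limma, adjusted p = 0.0023), from peaks of 17 and 16 tags, and the call was lost in the strongest 50000 rows. In liver the strongest Esr1 summit lay at the start of Esr1-202 and Esr1-203, which ranked at 97.7 and 89.3 there, at 76.7 and 78.6 in brown adipose and at 9.83 and no listed summit in heart (adjusted p = 7.3e-05 for that promoter). The start of Esr1-206 had a percentile of 65.0 in fed white adipose, 1.99 in fasting muscle and no summit elsewhere. Its tissue effect did not pass (limma F-test, adjusted p = 0.49). The epididymis markers Adam7 and Rnase9 ranked at 74.7 and 84.6 in that fed white adipose library and were not listed in the fasting one. Of the 12 epididymis markers, 4 had no listed peak in the fed library. Lcn5 (88.1 and 57.4), Lcn10 (29.4 and 18.7) and Rnase10 (91.8 and 95.8) were listed in both, fed first. The part of epididymal cells in the Esr1-206 peak was not tested.

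Esr2, estrogen receptor beta, was most open in muscle, at 96.6 and 94.8, and in spleen, at 91.5 and 90.2. It ranked at 68.8 and 67.6 in liver, 60.5 and 45.3 in brown adipose, 67.6 and 41.9 in white adipose, 55.9 and 81.0 for heart, 82.7 and 73.8 for lung and 76.8 and 78.6 in kidney. The muscle signal was not at the main start. It came from an intronic site, chr12:76165449-76165972 in the fed library, whose summit lay 1878 bp inside Esr2-203 at 21.2-fold enrichment and 209 tags. Muscle was 25.5 ± 7.63 points higher (limma, adjusted p = 0.039), and the call was lost with a window of 1000 bp, where spleen ranked highest, and under 4 further settings, as well as without brown adipose or kidney. Pgr, the progesterone receptor, ranked at 70.9 and 84.996 in lung, 64.1 and 64.8 in liver, 60.5 and 55.2 in heart and 55.1 and 60.4 in kidney. White adipose gave 30.8 and 41.9, while fed muscle, fed brown adipose and fed spleen had no listed peak beside 7.0006, 45.3 and 38.6 in their fasting libraries. Lung was 40.5 ± 9.30 points higher and muscle differed by -44.5 ± 9.30 points (limma, adjusted p = 0.029 and 0.0096). The Pgr call in lung was lost under 4 of 11 settings and without muscle (highest adjusted p 0.17 in limma), and that in muscle with q under 1e-06 and in the strongest 50000 rows (highest adjusted p 0.82). Nr3c2, the mineralocorticoid receptor, ranged from 88.8 to 99.0 and differed by -7.24 ± 0.885 points in spleen (adjusted p = 0.00025), a call lost when rows were ranked by fold enrichment.

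Spleen held the low values of several receptors that were open everywhere else. Rarb, a retinoic acid receptor, ranked at 98.3 and 98.1 in liver, 93.6 and 88.6 for muscle, 98.3 and 96.8 for brown adipose, 88.3 and 87.5 in white adipose, 96.5 and 97.8 for heart, 87.2 and 85.7 for lung and 96.4 and 93.3 in kidney, but had no listed peak in the fed spleen and 54.4 in the fasting spleen. Rorb, an orphan relative of the clock regulator Rora, gave 4.37 and 47.7 in spleen. Elsewhere Rorb ranked at 71.5 and 60.2 in liver, 92.9 and 94.6 for muscle, 95.7 and 94.2 for brown adipose, 93.2 and 88.9 in white adipose, 90.3 and 82.2 for heart, 85.3 and 87.5 for lung, and 84.2 and 69.6 in kidney. Nr2f2, which encodes COUP-TFII, a regulator of vein and mesenchyme, gave 45.9 and 63.3 in spleen. Its other values were 94.3 and 95.6 in liver, 97.995 and 97.3 for muscle, 94.5 and 96.5 for brown adipose, 96.8 and 95.8 in white adipose, 97.3 and 93.9 for heart, 94.7 and 94.6 for lung, and 95.5 and 95.2 in kidney. For each of the 3 genes both spleen libraries lay below the 14 others. The share of all genes separated in this way was not counted, nor was that for the liver and kidney separations given above. In limma, spleen was lower for 18.5% of all genes. The spleen differences were -66.1 ± 9.24 points for Rarb, -59.0 ± 8.83 for Rorb and -41.1 ± 3.09 for Nr2f2 (limma, adjusted p = 0.00056, 0.00084 and 1.1e-05), all kept under all alternatives of that fit. The exact pairing permutation for a tissue effect passed for Rarb and Rorb (adjusted p = 0.0058 and 0.0092) but not for Nr2f2 (adjusted p = 0.085). Background tags were 3.21 and 3.35 in the spleen libraries and 2.80 and 2.82 in the liver libraries, and the part of depth in the spleen values was not tested.

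The remaining nuclear hormone receptors ranked high with small shifts. Thra ranged from 93.3 to 98.5, Thrb from 93.1 to 99.4, Rara from 87.4 to 96.9, Rarg from 80.2 to 99.1 and Vdr, the vitamin D receptor, from 76.7 to 95.7. The thyroid hormone receptor gene Thrb was 1.93 ± 0.617 points higher in liver and differed by -3.70 ± 0.617 in spleen (limma, adjusted p = 0.031 and 0.0015). The differences were -10.9 ± 1.84 points for Rarg in liver, -9.91 ± 2.01 for Vdr in muscle, -4.74 ± 1.42 for Rara in kidney and -2.41 ± 0.665 for Thra in brown adipose (adjusted p = 0.0014, 0.0084, 0.041 and 0.034). Ranked by fold enrichment, Vdr in muscle changed sign (0.047 points, limma adjusted p = 0.99) and the calls of Rarg in liver and Thrb in both tissues were lost. Rara in kidney lost its call under 3 settings and in 5 of 7 fits that left out a tissue (without muscle, brown adipose, white adipose, heart or lung), and Thra in brown adipose under 4 settings and without lung or kidney. Rora ranged from 90.7 to 99.0 and differed by -5.32 ± 0.712 points in spleen (adjusted p = 0.00043), also lost with that ranking.

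Single promoters were also tested apart. Of 86 promoters of the 34 receptors, formed by joining starts under 2000 bp apart, 76 had a summit within 1000 bp in at least 1 library. Of these 76, 46 passed the F-test for tissue, beside 53.2% of the 34837 promoters of all genes that had such a summit. Rora-203 ranked at 95.1 and 96.4 in muscle and 94.0 and 89.6 in kidney and had no summit in liver or spleen, while Rora-202 lay above 90 everywhere. Rara-203 was listed at 71.1 and 65.5 in spleen and 69.3 and 67.7 in kidney, at 13.6 and 27.3 in lung and at 1.05 in fasting brown adipose, and not in the other 9 libraries (adjusted p = 1.1e-05). Vdr-202 ranked at 88.9 and 89.8 in kidney, the tissue that activates vitamin D, and at 63.2 and 79.5 in lung (adjusted p = 0.0093). Thra-203 ranked at 87.2 and 94.8 in muscle and had no summit in liver or spleen (adjusted p = 0.0053). The second promoter of Nr2f6 ranked at 97.0 and 95.6 in liver, 26.6 and 37.8 in muscle and was not listed in heart (adjusted p = 2.1e-05), although the gene as a whole ranged from 88.2 to 98.7.

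**Figure D3:**
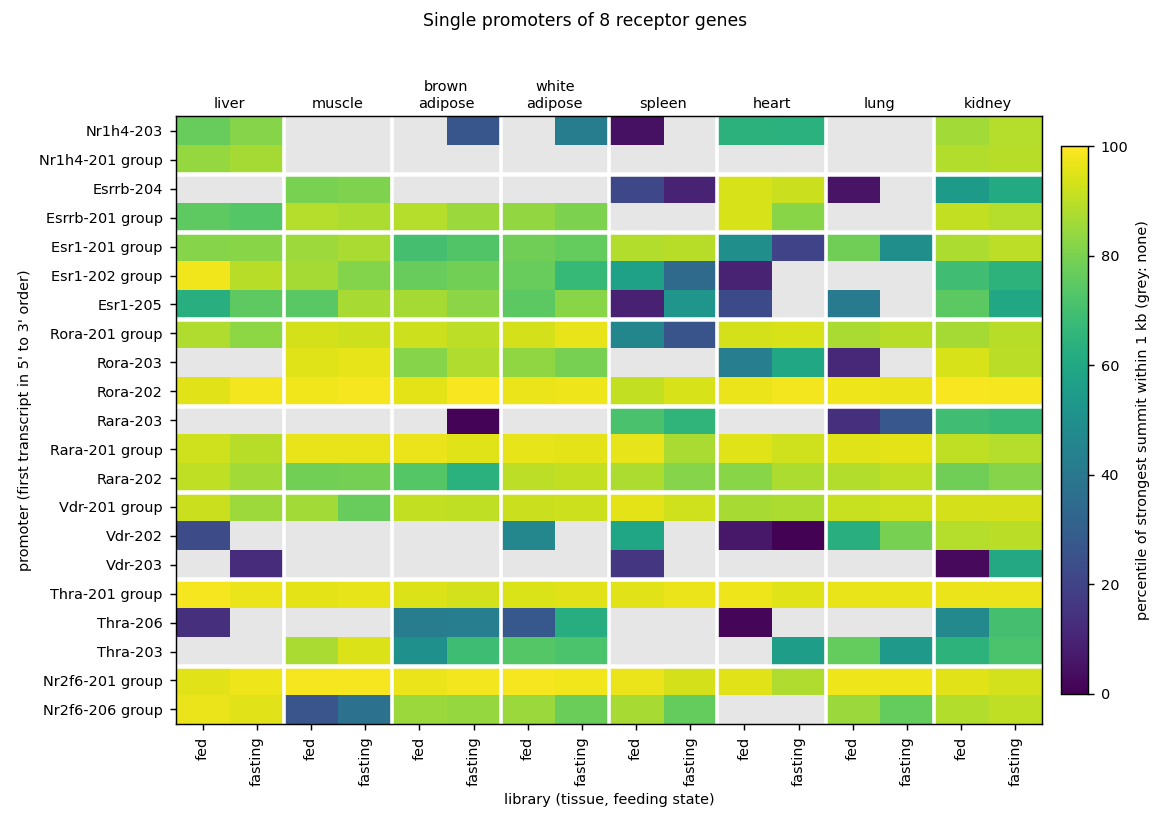
Heat map of the percentile of the strongest summit within 1 kb (colour, 0 to 100; grey, none) for single promoters of 8 receptor genes (rows, named by their first transcript, those listed in at least 4 libraries) in 16 libraries (columns). The downstream promoter of Nr1h4 (Nr1h4-201 group) is filled only in the 4 liver and kidney libraries, and Esrrb-204 lacks the liver and adipose signal of the Esrrb-201 group.

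The NR2 and NR6 orphan receptors were mostly uniform. Nr2c1 ranged from 94.2 to 99.1, Nr2c2 from 97.8 to 99.6, Nr2f6 from 88.2 to 98.7, Nr6a1 from 93.8 to 98.8 and Nr2f1 from 73.1 to 91.1. The lower values that passed were Nr2c2 in muscle (-0.707 ± 0.219 points) and brown adipose (-0.832 ± 0.219), Nr2f1 in muscle (-12.03 ± 3.20), Nr2f6 in heart (-5.04 ± 1.31) and Nr6a1 in liver (-2.92 ± 0.591; limma, adjusted p = 0.045, 0.029, 0.025, 0.030 and 0.0037), and all 5 calls were lost when rows were ranked by fold enrichment. Nr2e3, a photoreceptor gene, ranged from 88.5 to 99.0, but its strongest summit lay 1123 to 1137 bp inside an intron in all 16 libraries, where the annotation also places the long noncoding RNA Gm15507. Within 1000 bp of its own starts 1 library, the fasting heart, listed a summit, so its tissue differences (liver 4.51 ± 0.904, muscle -4.69 ± 0.904 and heart -6.20 ± 0.904 points, limma, adjusted p = 0.0035, 0.0067 and 0.0027) describe that intronic site, and the liver and heart differences reversed with a window of 1000 bp.

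The receptors of brain and steroid-producing glands were mostly weak in these tissues, apart from Nr5a1 in kidney and in the fasting liver. Nr2e1, the brain receptor TLX, reached 56.7 and 48.0 in heart. It ranked at 41.4 and 19.1 in kidney, 37.3 and no listed peak for muscle, 5.36 and 37.7 for brown adipose, no listed peak and 10.2 in white adipose, 11.1 and 30.5 in lung, no listed peak and 25.3 in liver, and no listed peak and 3.58 in spleen, and its tissue effect did not pass (adjusted p = 0.17). Nr0b1, the adrenal and gonadal receptor DAX1, had 1 peak, at 40.9 in fed brown adipose tissue, the deepest library. Nr5a1, the steroidogenic factor SF-1, ranked at 80.3 and 74.6 in kidney, at 15.99 and 70.8 in liver, 35.5 and 56.6 for muscle, 31.3 and 30.7 for brown adipose, 21.9 and 12.7 in white adipose, 37.8 and 26.8 for heart, 40.7 and 20.7 for lung, and no listed peak and 4.78 in spleen. Kidney was 48.4 ± 11.6 points higher for Nr5a1 (limma, adjusted p = 0.017). The exact pairing permutation for a tissue effect did not pass for Nr5a1 (adjusted p = 0.136). Tested apart, its promoter of Nr5a1-202 and Nr5a1-203 did not pass either (limma F-test, adjusted p = 0.139). The kidney site lay 625 and 631 bp inside Nr5a1-203. The 9 steroidogenic markers of adrenal and gonad averaged 16.9 and 18.1 in the kidney libraries, their lowest values among the 16. In each kidney library 6 of the 9 had no listed peak, as in each lung library. The part of adrenal cells in the kidney peak of Nr5a1 was not tested.

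By tissue, the receptors that differed were set beside the background of all genes. Liver was higher for 6 (Nr0b2, Nr1h4, Nr1i2, Nr1i3, Nr2e3 and Thrb), against 14.5% of all genes, and lower for 4 (27.1%). Muscle was higher for 4 (10.1%) and lower for 8 (12.4%), and brown adipose higher for 3 (6.81%) and lower for 3 (11.2%). White adipose was higher for 0 (6.54%) and lower for 1, Nr0b2 (4.3%). Spleen was higher for 1, Nr0b2 (16%), and lower for 12 (18.5%), the largest count of any tissue in either direction. Heart was higher for 5 (7.2%) and lower for 3 (8.33%), lung higher for 2 (5.31%) and lower for 3 (3.18%), and kidney higher for 5 (11.2%) and lower for 2 (10.6%). In all, 62 receptor and tissue pairs passed.

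The effect of fasting was taken as the fasting minus fed difference in percentile points. Over the 8 tissues, limma called 0 receptors at an adjusted p under 0.05, and 0 of 19719 genes (0%). At an unadjusted p under 0.05, 4 receptors remained (Nr1i2, Pgr, Rora and Rara), beside 4.64% of all genes. The smallest adjusted p of any gene was 0.81. With 8 tissues, the exact two-sided sign-flip permutation test cannot go below 0.0078. The tissues of a state came from the same pooled mice, so in both tests they are not independent replicates of fasting. After adjustment it called 0 of 19719 genes and so no receptor (smallest adjusted p over all genes, 0.83).

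The largest mean rises were those of Nr1i3, Pgr and Nr1h4. Nr1i3 averaged 20.4 fed and 35.5 fasting, a rise of 15.1 ± 27.6 points (SD over 8 tissues) seen in 4 tissues, with a fall in 2 (limma, unadjusted p = 0.11). Pgr averaged 35.2 and 49.8, 14.6 ± 18.0 points higher in fasting and higher in 7 of 8 tissues (unadjusted p = 0.040). Nr1h4 averaged 31.5 and 42.7, 11.1 ± 16.2 points higher and higher in 6 tissues (unadjusted p = 0.076). The largest mean falls were those of Nr1i2, Esr1 and Esrrb. Nr1i2 averaged 48.8 and 32.7, a difference of -16.1 ± 20.01 points, lower in 5 tissues and higher in liver and kidney (limma, unadjusted p = 0.038), and the mean turned to 5.01 in the strongest 50000 rows. Esr1 averaged 82.1 and 73.9 (-8.20 ± 13.5 points, lower in 5 of 8 tissues, unadjusted p = 0.10). Esrrb averaged 70.3 and 64.6 and was lower in fasting in 8 of 8 tissues, with a difference of -5.71 ± 8.24 points (limma, unadjusted p = 0.15; exact sign-flip permutation p = 0.0078, the smallest the design allows, adjusted p = 0.83). None of these 6 passed the adjustment (adjusted p = 0.81 for each in limma).

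**Figure D4:**
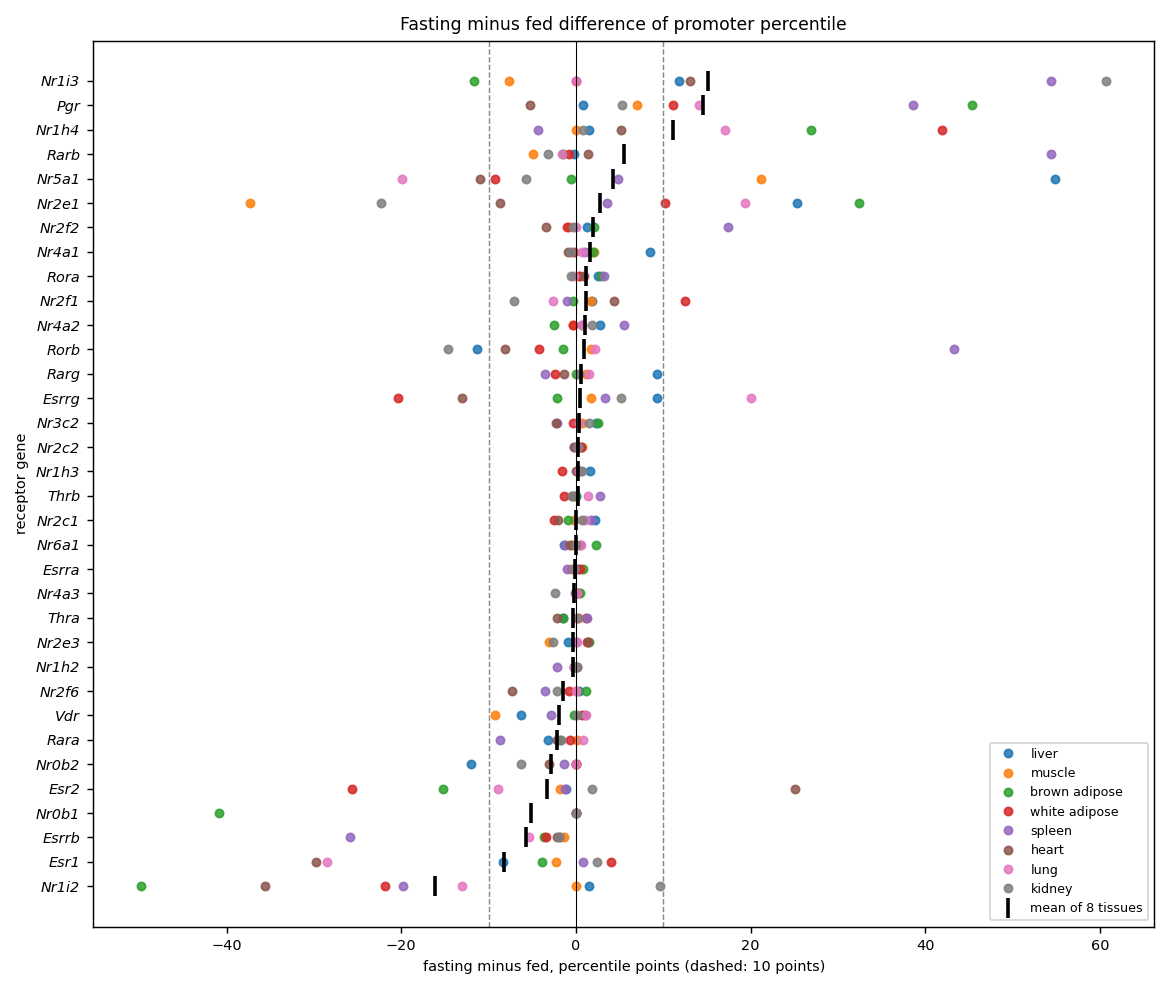
Fasting minus fed difference in percentile points (x axis) for 34 receptors (y axis, ordered by mean), with 1 coloured point per tissue, a black bar for the mean of 8 tissues and dashed lines at 10 points. Nr1i3, Pgr and Nr1h4 have the highest means and Nr1i2 the lowest, and single tissues lie far from the others for most of the widely spread receptors.

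Within a tissue there is 1 library per state and so no test. In 44 of the 272 receptor and tissue pairs the libraries differed by at least 10 points, 23 up and 21 down, from 16 receptors. Liver had 3 up (9.43% of all genes) and 2 down (13.7%), with Nr5a1 54.8 points up and Nr0b2 at -11.98 points at the ends. Muscle had 1 up, Nr5a1 at 21.1 points (3.66%), and 1 down, Nr2e1 at -37.3 (5.84%). Brown adipose had 3 up (6.19%) and 4 down (6.82%), from Pgr at 45.3 to Nr1i2 at -49.8 points. These shares are near or below those of all genes in liver and muscle. Background tags of the fed and fasting libraries were unequal in brown adipose (12.8 against 6.76) and also in muscle (6.39 against 10.6). The part of depth in these counts was not tested.

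White adipose had 4 up (7.3%) and 3 down (8.86%), from Nr1h4 at 41.9 to Esr2 at -25.7 points. Spleen had 5 up (7.77%) and 2 down (9.46%), from Rarb at 54.4 to Esrrb at -25.8 points. Heart had 2 up (7.75%) and 4 down (9.26%), from Esr2 at 25.1 to Nr1i2 at -35.6 points. Lung had 4 up (3.93%) and 3 down (6.15%), from Esrrg at 20.1 to Esr1 at -28.6 points. Kidney had 1 up, Nr1i3 at 60.7 points (4.13%), and 2 down (3.79%), the largest being Nr2e1 at -22.3 points. The median absolute difference of the receptors was 0.698 points in muscle to 2.80 in spleen, beside 0.496 and 1.31 for all genes in these tissues. In liver it was 1.72 for the receptors and 2.48 for all genes, and in the other 7 tissues it was above that of all genes.

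Many of these differences came from weak peaks. In 23 of the 44 pairs the stronger library had at most 30 tags at the summit, and in 14 pairs only 1 of the libraries listed a peak. Esrrb in spleen differed by -25.8 points between 13 tags fed and 12 fasting, and Esr1 in heart by -29.7 points between 17 and 16 tags. Rorb in liver differed by -11.3 points with 18 tags in both. Rarb in spleen went from no listed peak to 16 tags. In 14 pairs the stronger library had over 50 tags, up to 159 fed and 30 fasting for Nr1i3 in brown adipose. Others among them were Nr1i3 in liver (34 tags fed, 116 fasting, 4.91-fold and 7.603-fold enrichment), Esrrg in white adipose (137 and 34 tags, 12.5-fold and 5.09-fold), Pgr in lung (58 and 84 tags, 5.59-fold and 9.01-fold) and Nr0b2 in liver (87 and 100 tags, 5.92-fold and 4.17-fold). Nr0b2 in liver thus fell in percentile and fold while its tag number rose.

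**Figure D5:**
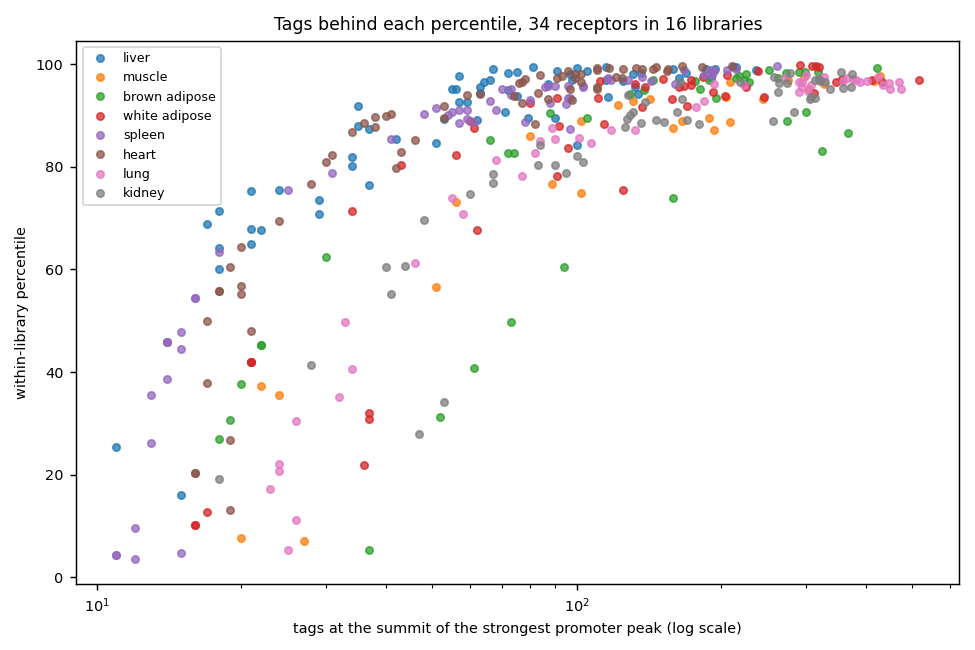
Tags at the summit (x axis, log scale) against the within-library percentile (y axis) of the strongest promoter peak of 34 receptors, coloured by tissue, 1 point per receptor and library where tags could be solved. The percentile climbs with tags at a rate that differs between libraries: 18 tags gave 71.5 for Rorb in the fed liver and 19.1 for Nr2e1 in the fasting kidney.

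Other genes of the pathway were read in the same way, from lists by role. Of 15 further nuclear receptors, 12 varied with tissue (64.7% of all genes did), among them Hnf4a, a liver-identity receptor, at 99.4 and 99.2 in liver and 87.9 and 95.8 in kidney, and Hnf4g at 99.0 and 97.2 in liver. Of 17 coregulators, 17 had a peak in all 16 libraries and 6 varied with tissue, with Med1 widest, at 84.9 and 87.3 in liver and 97.4 and 97.5 in brown adipose. Of 21 target genes, 19 varied with tissue. Dio1, a thyroid hormone target, ranked at 97.3 and 96.8 in liver and 97.9 and 97.9 in kidney, and the bile acid transporter genes Abcb11 and Slc51b at 94.2 and 95.6 and at 94.5 and 95.02 in liver, the tissue where Nr1h4 and Nr0b2 ranked highest. By at least 10 points on fasting, 3 of 120 gene and tissue pairs of the 15 receptors were up and 6 down, 0 and 1 of 136 pairs of the coregulators, and 16 and 13 of 168 pairs of the target genes. Among all genes the shares ran from 3.66% to 9.43% up and from 3.79% to 13.7% down by tissue.

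RefSeq promoter windows, 250 bases before to 50 after a start on GRCm38.p6, were matched for 32 of the 34 receptors (46 windows). The ratio of observed to expected CpG had a median of 0.607 in the 36 windows of receptors listed in all 16 libraries and 0.372 in the 10 windows of the others, beside 0.743 and 0.209 for all genes split in the same way. The lowest ratio was that of the Nr2f2-202 window (0.109), a promoter listed in 3 libraries, followed by Nr1i2 (0.130), Nr1i3 (0.144) and Nr0b2 (0.162), while Nr4a1 had 0.913 and Esrra 0.781. Over 32 receptors the highest ratio of a gene and its range between tissue means gave a Spearman rho of -0.54 and a Pearson r of -0.60, over points that share the 16 libraries. The half-site AGGTCA was found in 6 of the 46 windows (13.04%), beside 14.4% of 20150 windows of all genes. TGACG was found in 14 windows (30.4%, beside 24.2%), the windows of Nr4a1, Nr4a2 and Nr4a3 among them, and TATAAA in 6 windows (13.04%, beside 12.1%), among them that of Nr0b2. These are letter matches and not sites of binding.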

How the data were processed

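Peak lists of 16 ATAC-seq libraries were analysed. By the labels and the published methods, the authors aligned reads to GRCm38 with Bowtie2, removed duplicate and mitochondrial reads, shifted ends for Tn5, called peaks with MACS2 and kept the rows of smallest p outside blacklisted regions. The deposited columns used were fold enrichment (a ratio), -log10 p, -log10 q and the summit offset. The deposited score, which the authors' peak caller writes as a scaled integer, was not used. Versions were not given in the sources used here.

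Rows were ranked within each list by -log10 p. A gene took its strongest row with a summit within 3000 bp of a GENCODE vM21 start, or 0. limma 3.58.1 in R 4.3.3 was fitted to 19719 genes, with tissue and state, a variance trend, 7 residual degrees of freedom and Benjamini-Hochberg adjustment, and was tested on simulated data. Tags were solved from fold and p, whole within 0.01. Promoter windows came from RefSeq. There are no replicate libraries. The receptors and lists were chosen with earlier results of these data known. Values in all libraries were given for the 14 receptors with the widest tissue range, the NR4A receptors, and those with the largest mean fasting differences.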

Additional observations from a re-analysis of the deposited data

Results flagged for a closer look

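In 3 receptors the fasting library lay at least 20 points above the fed one in 1 tissue and at least 20 points below it in another. The share of all genes that did so was not counted. The difference between the tissues was not tested, since each tissue has 1 library per state. Esr2 rose by 25.1 points in heart (18 tags fed, 30 fasting) and changed by -25.7 points in white adipose (62 and 21 tags), where the fed and fasting summits were different sites. Esrrg rose by 20.1 points in lung (46 and 68 tags) and changed by -20.3 points in white adipose (137 and 34 tags). Nr2e1 rose by 32.4 points in brown adipose (37 and 20 tags) and changed by -37.3 points in muscle (22 tags fed, no listed peak fasting). The Nr2e1 value in brown adipose rose while the tag number fell, in libraries of 12.8 and 6.76 background tags. The part of depth in these differences was not tested.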

How the results depend on the processing

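Under the other settings the number of receptors with a tissue effect ran from 18 (exact permutation of the pairing of fed with fasting libraries) to 27 (logit scale), beside 24, and 16 receptors were called by both limma and the pairing test. The number with a fasting effect was 0 under each. The 44 pairs past 10 points became 68 when only the strongest 50000 rows were ranked and 25 at 20 points. Leaving out each tissue in turn gave 19 to 25 receptors with a tissue effect, 46 to 60 receptor and tissue pairs, 37 to 42 pairs past 10 points and 429 to 437 pairs with a peak. Of 62 tissue differences, 16 were kept under every setting and every left-out tissue, 33 when rows were ranked by fold enrichment, 35 with q under 1e-06 and 53 with a window of 1000 bp. The labels carry no replicate numbers, so no replicate block was fitted; the tissue term already pairs both states within each tissue.

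These differences changed sign, in points, and the cause was not tested. With a window of 1000 bp, Nr2e3 was at -2.29 in liver and 16.03 in heart. With protein-coding transcripts only, Nr2e3 was at -23.1 in liver and 8.71 in heart, and Nr1h3 at -0.046 in kidney. Ranked by fold, Vdr was at 0.047 in muscle. With q under 1e-06, Nr1h4 was at -24.8 in heart and Nr0b2 at -17.4 in spleen. In the strongest 50000 rows, Nr1h4 was at -15.4 in heart, Nr1i3 at -4.41 in brown adipose, Nr0b2 at -5.86 in spleen and in heart, and the mean fasting difference of Nr1i2 was 5.01. Testing promoters apart was chosen after seeing the data. Of the largest rise and fall on fasting named in each tissue, 16 in all, 3 moved by under 10 points with q under 1e-06. In the strongest 50000 rows 0 did so. A change of sign was counted for 0 of them, which says little about direction. A difference that vanished because neither library kept a peak could not count as a change of sign. Among weak peaks, 13 and 12 tags for Esrrb in spleen went with a difference of -25.8 points.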
